A study of Mus musculus with 6 samples.

Results

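Tropomyosins are coiled-coil proteins that lie end to end along actin filaments, and mice make them from 4 genes, Tpm1, Tpm2, Tpm3 and Tpm4. Every gene and transcript whose gene name was one of these was taken, which gave 4 of the 34361 genes and 44 of the 100706 transcripts in the deposited tables. Tpm1 had 19 transcripts, Tpm2 had 5, Tpm3 had 16 and Tpm4 had 4. The RNA came from femur of 6 mice, read as 6 poly(A)-selected, stranded libraries, 3 per group. The treatment label of A1 to A3 names a knockout of FGF21 induced with tamoxifen, whereas the series' design text gives Fshr, whose product is the receptor of follicle-stimulating hormone, for the same mice. They are called knockout-labelled here, and B1 to B3, from mice injected with corn oil, are the controls. The labels used here give no strain, sex, age, Cre driver, dose or time after injection, and name tamoxifen for the knockout-labelled group only, so knockout and tamoxifen cannot be told apart. The series title speaks of inhibition of follicle-stimulating hormone in osteocytes of ovariectomized mice, and the labels do not say whether these mice were ovariectomized.

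In striated muscle, tropomyosin moves over the thin filament when calcium binds troponin and so uncovers the sites on actin that myosin binds. In other cells, tropomyosins mark different actin filaments, such as stress fibres, and set which myosins and severing proteins reach them. Each gene makes several proteins by choosing between exons. Tpm1, Tpm2 and Tpm3 make long forms that begin with exon 1a. Tpm1 and Tpm3 also make short forms from an internal start, exon 1b, and Tpm4 makes short forms. A choice between exons 6a and 6b follows, and then one between last exons. Exon 9a is the striated muscle type, which takes part in binding troponin, and exon 9d is the type of smooth muscle and non-muscle cells. Transcripts were therefore grouped as long forms with a striated last exon, 9a or the 9b that follows it (7 transcripts), long forms with another last exon (8), short forms (11) and transcripts with no class, mostly without a full coding sequence (18). Exon structures and transcript names were read by transcript ID from GENCODE M21.

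The exons that set these classes are shown because the shares reported further on are sums over the transcripts that hold them. Within each Tpm1 pair, capitals mark the bases that differ between the alternatives at the same position. All are coding sequence of chromosome 9, minus strand, build GRCm38. Exon 2a lies at chr9:67048124-67048249 and exon 2b at chr9:67047786-67047911. Exon 6a lies at chr9:67032466-67032541 and exon 6b at chr9:67031951-67032026. The coding bases of the 9a ending lie in 2 exons within chr9:67028167-67029742, and those of exon 9d at chr9:67023362-67023441.
Tpm1 exon 2a: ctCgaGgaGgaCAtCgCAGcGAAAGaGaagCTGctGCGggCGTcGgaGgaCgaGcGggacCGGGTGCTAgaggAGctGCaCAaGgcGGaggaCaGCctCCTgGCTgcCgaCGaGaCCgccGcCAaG
Tpm1 exon 2b: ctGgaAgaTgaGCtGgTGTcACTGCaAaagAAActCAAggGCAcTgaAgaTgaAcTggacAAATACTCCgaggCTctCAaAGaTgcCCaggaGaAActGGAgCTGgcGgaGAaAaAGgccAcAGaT
Tpm1 exon 6a: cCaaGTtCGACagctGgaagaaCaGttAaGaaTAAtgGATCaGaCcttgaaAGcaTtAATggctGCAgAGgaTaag
Tpm1 exon 6b: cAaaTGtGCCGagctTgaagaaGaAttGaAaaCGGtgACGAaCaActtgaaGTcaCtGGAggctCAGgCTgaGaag
Tpm1 ending 9a: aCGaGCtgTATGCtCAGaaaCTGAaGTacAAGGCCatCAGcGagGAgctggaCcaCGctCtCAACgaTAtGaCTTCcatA
Tpm1 ending 9d: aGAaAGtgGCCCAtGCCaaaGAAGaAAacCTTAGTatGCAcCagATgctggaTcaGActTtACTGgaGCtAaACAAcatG
The alternatives were 47.6% identical for exons 2a and 2b, 56.6% for 6a and 6b and 42.5% for 9a and 9d. The striated ending was more alike between genes than it was to the other ending of its own gene, as the next sequences show, in which capitals mark the bases that differ from the 9d ending of the same gene. Tpm2 9a lies at chr4:43515924-43516003, minus strand, and Tpm3 9a in 2 exons within chr3:90091013-90091931, plus strand, both GRCm38.
Tpm2 ending 9a: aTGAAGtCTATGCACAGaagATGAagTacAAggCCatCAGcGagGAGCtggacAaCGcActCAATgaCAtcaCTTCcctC
Tpm3 ending 9a: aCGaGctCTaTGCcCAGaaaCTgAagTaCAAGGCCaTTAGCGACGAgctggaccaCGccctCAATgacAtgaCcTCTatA
Between genes, the 9a endings were 81.2% to 88.8% identical and the 9d endings 60% to 71.2%, whereas 9a and 9d of one gene were 41.2% identical in Tpm2 and 45% in Tpm3.

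The libraries held 65796046 to 73494537 expected counts each, taken as 4 counts per read pair. Of the counts of up to 12 in genes with a single transcript and a single exon, 43.8% to 49.2% were multiples of 4, so this factor is approximate. Fgf21 and Fshr both had 0 counts in all 6 libraries, which is under the 12 counts (3 read pairs) taken as the detection floor, so neither gene checks the group labels. The transcriptomes differed widely: 5860 of 20388 genes tested were higher (28.7%) and 5872 lower (28.8%) in the knockout-labelled group. All 8 skeletal muscle fibre markers were higher, with a summed level of 29397 to 29910 FPKM against 6759 to 6954 FPKM in controls. All 6 osteoblast markers were lower (3045 to 3081 against 15668 to 15776 FPKM), as were all 6 osteoclast markers (637 to 651 against 4785 to 4807 FPKM). FPKM is the number of fragments per kilobase of length, corrected for library depth. In bulk tissue, fewer cells of a type and less RNA per cell cannot be told apart, and the part of these markers in the tropomyosin results was not tested.

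The genes of the muscle sarcomere and the cytoskeletal gene moved in opposite directions. Tpm1, Tpm2 and Tpm3 were higher and Tpm4 was lower in the knockout-labelled group. Changes are log2 fold changes by the quasi-likelihood test of edgeR on counts, adjusted over all genes. The SE printed beside a change, here and further on, is not part of the edgeR fit. It was computed separately, from the spread of log2 depth-scaled counts between the libraries within each group. Tpm1 (ENSMUSG00000032366, GRCm39 chr9:66929872-66956549, minus strand), the gene of striated muscle α-tropomyosin, read 1274, 1277 and 1283 FPKM in the knockout-labelled libraries and 355, 355 and 351 FPKM in controls. The groups did not overlap, and the means of 1278 ± 4.63 and 353 ± 2.17 FPKM (SD, n = 3) were 3.62-fold apart. The edgeR change was 2.28 (SE 0.0043, adjusted p = 6.75e-19).

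Tpm2 (ENSMUSG00000028464, chr4:43514711-43523464, minus strand), the gene of β-tropomyosin, read 1536, 1558 and 1543 FPKM against 530.2, 529.7 and 528 FPKM in controls. All 3 knockout-labelled libraries lay above all 3 controls, with means of 1545 ± 11.5 and 529 ± 1.04 FPKM (SD, n = 3). The edgeR change was 1.97 (SE 0.0060, adjusted p = 1.31e-17).

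Tpm3 (ENSMUSG00000027940, chr3:89979956-90008209, plus strand) makes both the slow skeletal muscle form and widely expressed cytoskeletal forms, and changed least. It read 119.6, 118 and 119.6 FPKM against 101, 104 and 105 FPKM. The groups did not overlap, although their means of 119 ± 1.21 and 103 ± 1.93 FPKM (SD, n = 3) were only 1.15-fold apart. The edgeR change was 0.63 (SE 0.021, adjusted p = 7.54e-11), larger than the ratio of FPKM because the 2 scales are centred differently: under library totals alone the median gene stood at -0.44 in place of -0.02, the split over all genes became 3379 higher and 10339 lower, and Tpm3 rose by 0.21. A gene on chromosome 14, annotated as a Tpm3-related sequence (Tpm3-rs7), held 12.1 ± 0.956 and 13.7 ± 0.419 FPKM (SD, n = 3), 9.21% to 13.5% of the Tpm3 level. Its sequence was not compared with that of Tpm3. Any reads shared between them would leave Tpm3 uncertain by an amount that was not measured.

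Tpm4 (ENSMUSG00000031799, chr8:72884018-72906986, plus strand), which makes a short cytoskeletal tropomyosin of non-muscle cells and platelets, read 37.5, 39.4 and 40.0 FPKM against 83.5, 85.5 and 85.6 FPKM. Each knockout-labelled library was below each control. The means were 39.0 ± 1.30 and 84.9 ± 1.19 FPKM (SD, n = 3), and the edgeR change was -0.70 (SE 0.029, adjusted p = 3.85e-10). In controls the order of the levels was Tpm2, Tpm1, Tpm3 and Tpm4, and in the knockout-labelled libraries it was the same, with no overlap between neighbours in either group.

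**Figure D1:**
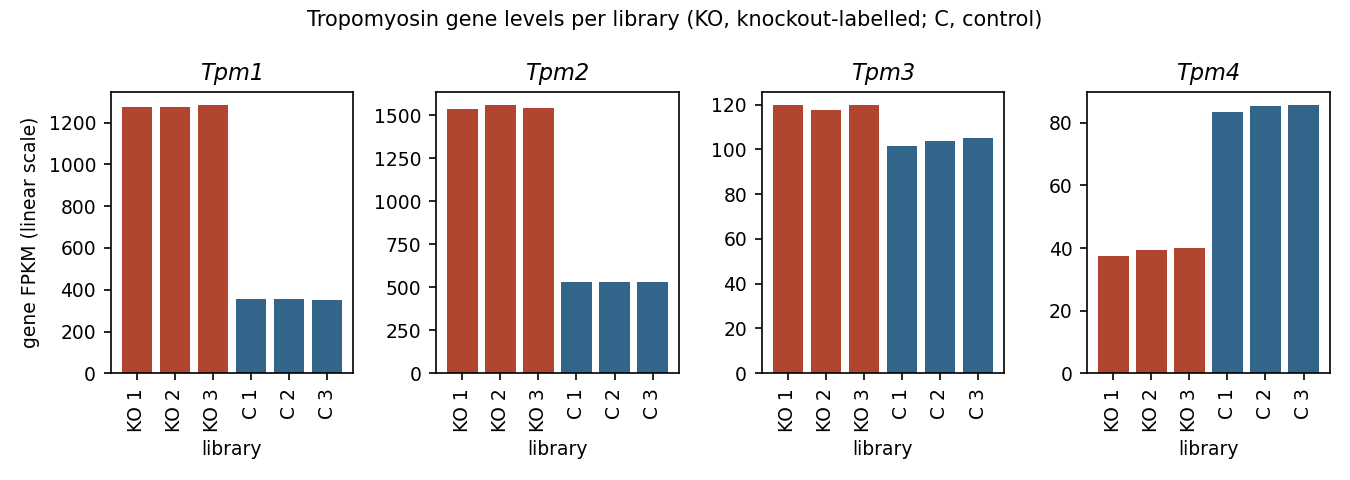
Level of each tropomyosin gene in FPKM on a linear axis from 0, with 1 bar per library (KO, knockout-labelled; C, control) and a separate scale per gene. Tpm1 and Tpm2 lie at or above 1274 FPKM in the knockout-labelled libraries and below 540 FPKM in controls, Tpm3 differs little, and Tpm4 is the gene that is lower.

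Counting all 44 transcripts together changes the picture of which gene dominates, because the gene FPKM was divided by a length of up to 6485 bases (Tpm1), longer than any single transcript (2890 bases for Tpm1). The transcripts of Tpm1 summed to 6549 ± 144 FPKM in the knockout-labelled group and 1586 ± 74.8 FPKM in controls, those of Tpm2 to 2244 ± 30.3 and 764 ± 6.67, those of Tpm3 to 533 ± 9.07 and 418 ± 8.37, and those of Tpm4 to 77.2 ± 2.55 and 168 ± 2.44 (SD, n = 3). On this transcript scale Tpm1, not Tpm2, stood first in both groups. Tpm1 held 69.6 ± 0.717% of all tropomyosin FPKM in the knockout-labelled group and 54.0 ± 1.26% in controls. The share of Tpm3 was 5.67 ± 0.157% against 14.2 ± 0.449%, and that of Tpm4 0.821 ± 0.0341% against 5.73 ± 0.119%. The class and transcript shares are of this transcript sum, and for each share the exact two-sided permutation test of 3 libraries against 3 can give no p under 0.1, which every pair of groups without overlap reaches.

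Summed over the 4 genes, long striated forms made up most of the tropomyosin RNA in both groups. Short forms were the only class with a lower mean summed level in the knockout-labelled group. Long striated forms held 86.0 ± 0.947% in the knockout-labelled group and 67.5 ± 6.07% in controls (SD, n = 3). Short forms held 1.73 ± 0.253% and 12.6 ± 0.535%. In level, short forms summed to 165, 139 and 182 FPKM in the knockout-labelled libraries and 348, 387 and 377 FPKM in controls, without overlap. Long forms with another last exon held 11.2 ± 1.23% and 18.2 ± 5.95%, while their summed level was 1051 ± 103 against 532 ± 165 FPKM.

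The 3 genes with alternative forms did not share one pattern. In Tpm1, the long striated share was 86.9%, 86.7% and 85.9% in the knockout-labelled libraries and 59.98%, 76.7% and 56.6% in controls. The groups did not overlap, but controls were spread widely, with control 2 nearest to the knockout-labelled group. The short share of Tpm1 was 0.645%, 0.484% and 0.734% against 3.52%, 6.88% and 5.09%. The share of long Tpm1 forms with another last exon was also lower, at 10.9%, 11.3% and 13.1% against 34.7%, 14.9% and 35.6%, without overlap. Its difference in means, -16.6 percentage points, was larger in size than that of the short share, -4.54. In Tpm3, the long striated share was 78.8%, 78.2% and 79.8% against 64.7%, 64.3% and 65.2%, a tighter separation than in Tpm1. The short share of Tpm3, which includes Tpm3-202 with ending 9a, was 9.04%, 5.45% and 10.4% against 31.4%, 24.6% and 30.6%. Long Tpm3 forms with another last exon had a larger mean share, 11.6 ± 3.32% against 4.44 ± 4.05% (SD, n = 3), with overlapping groups. In Tpm2 the long striated share was 89.1 ± 2.42% against 89.9 ± 1.68% (SD, n = 3), with overlapping groups (exact permutation p = 0.7). Tpm4 was made of short forms in both groups, at 99.8 ± 0.208% and 99.7 ± 0.213%.

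**Figure D2:**
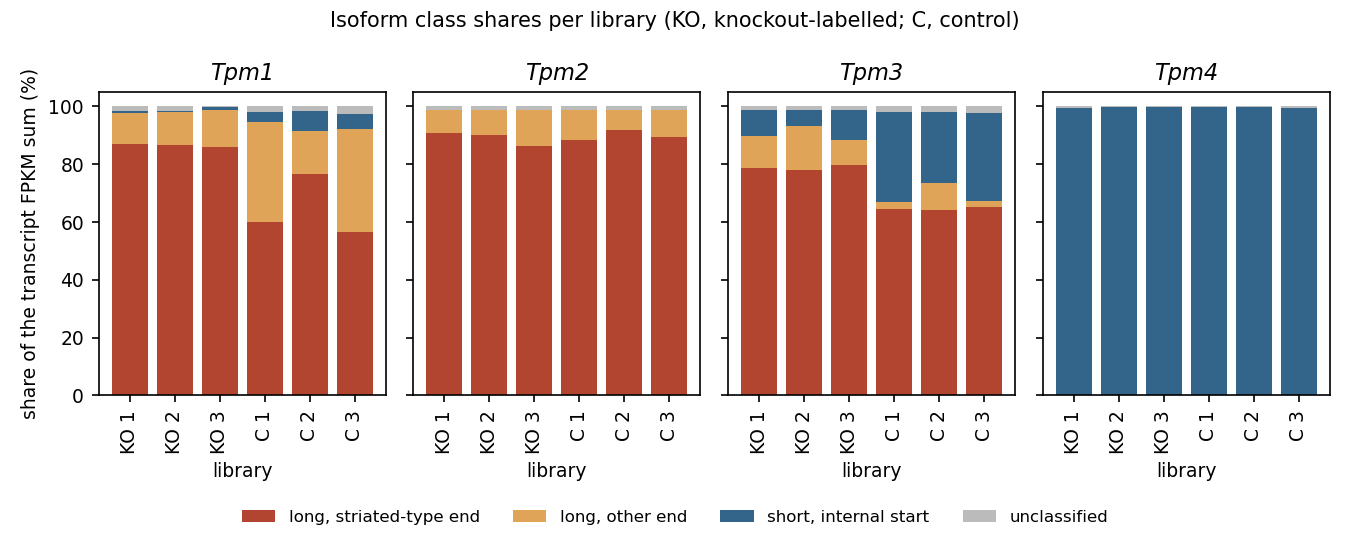
Share of each gene's summed transcript FPKM, in percent, held by each isoform class in every library. In Tpm1 and Tpm3 the long striated part is larger and the short part smaller in all 3 knockout-labelled libraries, while Tpm2 and Tpm4 look alike in both groups. The part of long forms with another last exon is also smaller in Tpm1, and in the mean larger in Tpm3.

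To test the classes, the counts of the member transcripts were summed by gene and class and refitted with all other transcripts, a step chosen after the data were seen. Among all features so fitted, 10.2% were called higher and 7.93% lower by edgeR. The long striated sums rose in all 3 genes that make them, by 2.85 in Tpm1 (SE 0.16, adjusted p = 0.000125), 1.99 in Tpm2 (adjusted p = 1.41e-07) and 1.09 in Tpm3 (adjusted p = 1.64e-05). Long forms of Tpm2 with another last exon also rose, by 2.14 (edgeR adjusted p = 0.00251). For Tpm1 the corresponding sum changed by 1.30 (SE 0.39, edgeR adjusted p = 0.045), a call that was lost under library totals alone (adjusted p = 0.114), without the low-count filter (0.0892) and when any of 5 of the 6 libraries was left out. The short sum of Tpm4 fell by 0.67 on the log2 scale (edgeR adjusted p = 9.53e-05). The short sums of Tpm1 and Tpm3 changed by -0.97 (SE 0.32, edgeR adjusted p = 0.0695) and -1.01 (SE 0.32, adjusted p = 0.0587), past the threshold only under some settings. Under library totals alone they were -1.42 (adjusted p = 0.0171) and -1.46 (adjusted p = 0.014).

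Usage asks instead whether a class changed relative to the rest of its gene, so that scaling between libraries cancels. By edgeR's diffSpliceDGE, which called 0.848% of all features, the short class of Tpm1 fell by 3.28 on the log2 scale relative to its gene (adjusted p = 6.73e-05), and this call held in every alternative run. The short class of Tpm3 changed by -1.66 relative to its gene (diffSpliceDGE adjusted p = 0.0685). That value crossed the threshold without control 2 (adjusted p = 0.0269). The long striated classes were not called in usage, at 0.55 in Tpm1 and 0.44 in Tpm3. Long Tpm1 forms with another last exon were not called either (-1.01, diffSpliceDGE adjusted p = 0.432). As a single transcript, Tpm3-205 was not called by diffSpliceDGE, but it was by limma's diffSplice on voom values (1.01, adjusted p = 0.00179).

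At the level of single transcripts, 32 of the 44 passed the low-count filter, 11 of them were called higher and 5 lower, and 16 were not called. Over all 47621 transcripts tested, 10.2% were called higher and 7.93% lower by the same edgeR test, that is 4866 and 3777, which became 2940 and 8625 under library totals alone. The 11 higher ones were 5 of Tpm1, all 5 of Tpm2 and 1 of Tpm3, and the 5 lower ones were 4 of Tpm1 and 1 of Tpm4. In usage, 2 of the 32 were called, against 0.85% of all transcripts tested. The 14 transcripts that held at least 5% of their gene in either group are described one by one. The other 30 together held 3.16% and 11.7% of Tpm1 in knockout-labelled and control libraries, 1.07% and 1.15% of Tpm2, 1.43% and 2.32% of Tpm3, and 2.08% and 2.60% of Tpm4.

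Tpm1-205 (ENSMUST00000113685; exons 1a, 2b, 6b and 9a), the arrangement of striated muscle α-tropomyosin, was the most abundant tropomyosin transcript. It read 4685, 4727 and 5393 FPKM in the knockout-labelled libraries and 859, 1190.4 and 802 FPKM in controls. The groups were far apart, and the transcript rose by 2.83 (SE 0.19, edgeR adjusted p = 0.000231). Its share of Tpm1 was 75.5 ± 7.82% against 59.6 ± 10.2% (SD, n = 3), with overlapping groups: control 2, at 71.2%, stood above knockout-labelled library 1, at 70.6%. Tpm1-207 (ENSMUST00000113687; 1a, 2b, 6b and 9b), which skips exon 9a, read 998, 928 and 0 FPKM against 0, 35.9 and 0 FPKM. The knockout-labelled library without it was the one with the highest Tpm1-205, and the long striated share, which holds both, varied less than either within the knockout-labelled group but not within controls. No call was made for Tpm1-207 (edgeR adjusted p = 0.364).

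Of the long Tpm1 transcripts ending in exon 9d, the type of smooth muscle and non-muscle cells, 4 held at least 5% of the gene. These did not move in one direction. Tpm1-216 (ENSMUST00000113707; 1a, 2b, 6b and 9d) read 317, 347 and 370.4 FPKM against 38.7, 49.8 and 33.6 FPKM. It was higher in every knockout-labelled library and rose by 3.54 (SE 0.18, edgeR adjusted p = 8.36e-05). Tpm1-214 (ENSMUST00000113701; 1a, 2a, 6a and 9d), with the exon 2a that is known from smooth muscle, read 10.9, 11.04 and 9.46 FPKM against 90.9, 143 and 70.5 FPKM. Every control was above every knockout-labelled library, and the transcript fell by 2.83 on the log2 scale (SE 0.31, edgeR adjusted p = 0.00168) while its gene rose. Tpm1-213 (ENSMUST00000113697; 1a, 2b, 6a and 9d), which has exon 6a where Tpm1-216 has 6b, read 3.25, 2.59 and 3.201 FPKM against 104, 44.8 and 86.8 FPKM. It fell by 4.25 on the log2 scale (SE 0.38, edgeR adjusted p = 0.000857), and its share of Tpm1 was 0.0461 ± 0.00605% against 5.001 ± 2.08% (SD, n = 3). Relative to its gene it changed by -6.55 (diffSpliceDGE adjusted p = 0.0274). This usage call was lost in 5 of the 6 fits that leave out 1 library, with adjusted p between 0.0737 and 0.239.

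Tpm1-202 (ENSMUST00000034928), annotated with both 2a and 2b and with 6b and 9d, read 392, 383 and 447 FPKM against 302, 0 and 352 FPKM. Control 2, listed at 0, stood apart from the other 2 controls, and no call was made with all libraries (edgeR adjusted p = 0.736). Without control 2 the change was 0.78 (edgeR adjusted p = 0.016). The same library had the highest Tpm1-205 among the controls and the only control reads of Tpm1-207, so the spread of the Tpm1 long striated share in controls moves with it. The cause of this split was not tested. Among Tpm1 transcripts under 5%, the short form Tpm1-209 (1b, 6b and 9c) read 8.55, 9.90 and 10.5 FPKM against 44.3, 62.7 and 34.8 FPKM. It fell by 1.84 on the log2 scale (SE 0.26, edgeR adjusted p = 0.00404), with no overlap between the groups. Exon 9c is an ending known from brain.

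All 5 transcripts of Tpm2 rose together, with no change of usage called. Tpm2-202 (ENSMUST00000107913; 1a, 6b and 9a), the skeletal muscle β-tropomyosin arrangement, read 1626, 1664 and 1675 FPKM against 555, 535 and 539.9 FPKM. It rose by 2.06 (SE 0.019, edgeR adjusted p = 2.2e-07), and its share of Tpm2 was 73.8 ± 0.203% against 71.1 ± 0.749% (SD, n = 3), without overlap. Tpm2-203 (ENSMUST00000107914; 1a, 6a and 9d), the arrangement of smooth muscle and non-muscle cells, read 180.3, 196 and 286 FPKM against 79.2, 53.9 and 72.3 FPKM. It rose by 2.14 (SE 0.27, edgeR adjusted p = 0.00251), in the direction of the muscle form. Tpm2-201 (ENSMUST00000030184), which joins exon 6a to 9a, read 381, 366 and 286 FPKM against 127, 159.9 and 144 FPKM. It rose by 1.71 (SE 0.16, edgeR adjusted p = 0.000714). Knockout-labelled library 3 was lowest for Tpm2-201 and highest for Tpm2-203, which share exon 6a, and their sum was 561, 561 and 572 FPKM.

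In Tpm3, a muscle form rose and a cytoskeletal form lost share. Tpm3-205 (ENSMUST00000121503; 1a, 6b and 9a), the slow skeletal muscle arrangement, read 422, 409 and 432 FPKM against 265, 269 and 278 FPKM. All 3 knockout-labelled libraries were above the controls, and the transcript rose by 1.09 (SE 0.035, edgeR adjusted p = 1.66e-05). Tpm3-201 (ENSMUST00000029549; 1b, 6a and 9d), the widely expressed short form, read 11.3, 11.9 and 33.2 FPKM against 88.8, 79.5 and 100.1 FPKM. Its groups did not overlap, although its level missed the threshold (change -1.80, SE 0.52, edgeR adjusted p = 0.0537). It passed under library totals alone (-2.25, adjusted p = 0.0215), with counts divided by 4, with DESeq2 and with limma on FPKM. Without knockout-labelled library 3 it was -2.48 (edgeR adjusted p = 0.000732), and over all alternatives the adjusted p ran from 0.000732 to 0.146. Its share of Tpm3 was 3.51 ± 2.28% against 21.4 ± 2.23% (SD, n = 3), and relative to its gene it fell by 2.45 on the log2 scale (diffSpliceDGE adjusted p = 0.000495), a call that held in every alternative run.

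The other described Tpm3 transcripts were not called in the main edgeR fit, although Tpm3-204 passed in some alternatives that keep all libraries. Tpm3-204 (ENSMUST00000119570; 1a, 6a and 9d), a long form with the cytoskeletal ending, read 59.5, 79.0 and 46.0 FPKM against 8.67, 38.1 and 8.89 FPKM. Control 2 was again apart from the other controls. The groups did not overlap in FPKM, yet neither the level (change 2.18, SE 0.74, edgeR adjusted p = 0.0896) nor the usage (diffSpliceDGE adjusted p = 0.0574) passed. Without control 2 both did, at 3.27 (edgeR adjusted p = 0.00393) and 2.60 (diffSpliceDGE adjusted p = 0.000866), and over all alternatives the adjusted p ran from 0.00393 to 0.207 for the level and from 0.000866 to 0.599 for the usage. Tpm3-202 (ENSMUST00000118566), a short form with 6b and 9a, read 35.8, 15.6 and 21.9 FPKM against 38.6, 21.8 and 28.6 FPKM. Its groups overlapped, and the estimate of 0.17 (SE 0.42, edgeR adjusted p = 0.812) turned negative under other scalings.

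Tpm4 was nearly a single transcript. Tpm4-201 (ENSMUST00000003575) read 72.1, 77.0 and 77.6 FPKM against 163, 164 and 165 FPKM. It fell by 0.66 on the log2 scale (SE 0.033, edgeR adjusted p = 0.00012), with the groups well apart. It held 97.9 ± 0.832% of the gene against 97.4 ± 0.943% (SD, n = 3), so the change of the gene was that of this transcript.

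**Figure D3:**
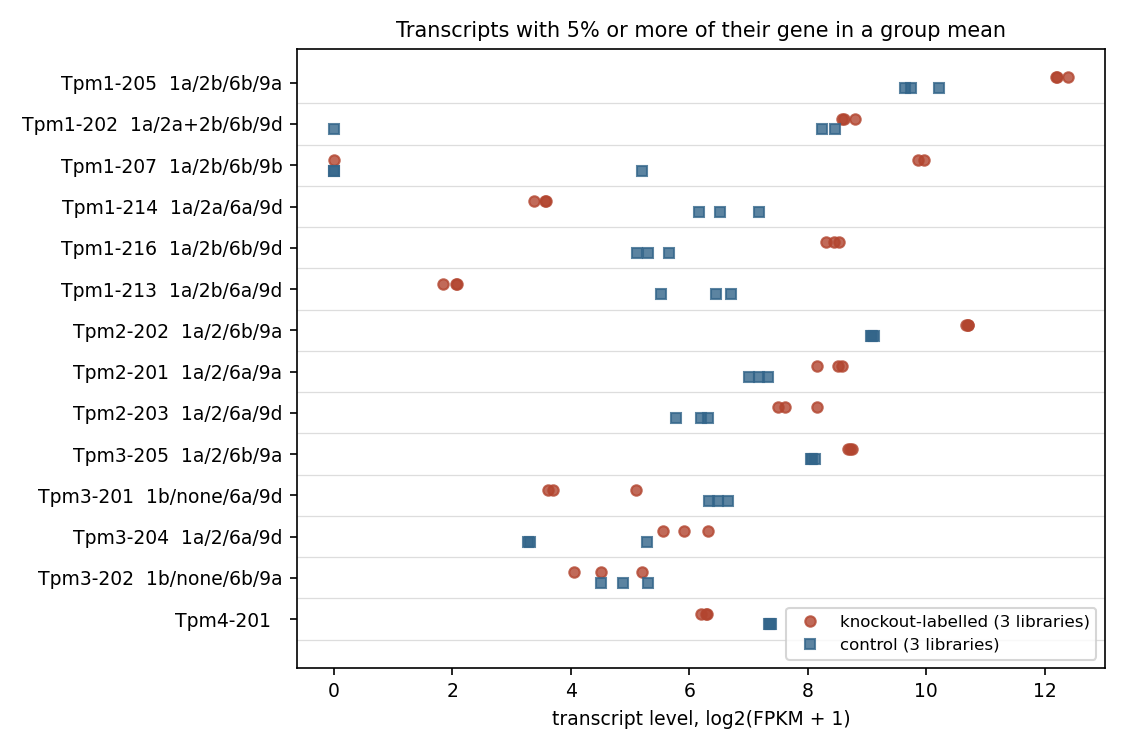
Level of the 14 transcripts that hold at least 5% of their gene, as log2(FPKM + 1) with 1 point per library and the exons of each beside its name. Long transcripts with exons 6b and 9a lie to the right in knockout-labelled libraries. So do Tpm1-216, Tpm2-201, Tpm2-203 and Tpm3-204, which hold exon 6a, ending 9d or both. Tpm1-213, Tpm1-214, Tpm3-201 and Tpm4-201 lie to the left. Tpm1-207 and Tpm1-202 each include libraries at 0.

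The long and the short forms of Tpm3 start from separate promoters, shown because the short share of Tpm3 was lower in every knockout-labelled library than in any control. The RefSeq windows run from 250 bases before to 50 bases after the start on chromosome 3, plus strand, build GRCm38.p6, and capitals mark the E-box. The upstream window, chr3:90072401-90072700, is where Tpm3-204 and Tpm3-205 begin, and the internal window, chr3:90079271-90079570, where Tpm3-201, Tpm3-202 and 3 further transcripts begin.
Tpm3 upstream promoter: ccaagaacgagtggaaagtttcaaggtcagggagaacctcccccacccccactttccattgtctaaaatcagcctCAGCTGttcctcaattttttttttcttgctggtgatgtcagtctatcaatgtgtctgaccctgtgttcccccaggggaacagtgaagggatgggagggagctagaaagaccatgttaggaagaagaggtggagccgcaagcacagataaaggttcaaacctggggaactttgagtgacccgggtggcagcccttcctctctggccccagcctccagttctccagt
Tpm3 internal promoter: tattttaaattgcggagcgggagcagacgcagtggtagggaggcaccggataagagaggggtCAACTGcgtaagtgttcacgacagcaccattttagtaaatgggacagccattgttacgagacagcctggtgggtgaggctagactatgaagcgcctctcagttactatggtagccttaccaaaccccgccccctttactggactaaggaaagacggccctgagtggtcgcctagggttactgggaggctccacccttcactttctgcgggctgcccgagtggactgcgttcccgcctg
The upstream window was 52% G or C and the internal one 55.7%. Each held 1 E-box (CANNTG on either strand, which is the same motif on both), at -175 and -188 from the start, and 72.3% of 32817 mouse promoter windows of this length hold at least 1. The internal window held 1 GC box (GGGCGG on either strand), at -63, a motif found in 35.6% of windows, and the upstream window held none. Neither held an MCAT element (CATTCC, 14.7% of windows), the TATA letters TATAAA (13.6%), a MEF2 motif (3.19%) or a CArG box (1.63%). All 5 Tpm2 transcripts start within 300 bases of 1 site, and 12 Tpm1 transcripts do so at the upstream Tpm1 start. These matches describe letters and say nothing about the binding of a factor.

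Transcripts were also summed by exon, as a share of the FPKM of those transcripts whose coding exons were known. Exon 6a of Tpm1, whose bases are printed beside those of 6b, held 0.658%, 0.649% and 0.648% of that sum in the knockout-labelled libraries and 13.5%, 12.3% and 11.7% in controls. The spread between libraries was far smaller than the distance between the groups, also for control 2. In level, Tpm1 transcripts with exon 6a summed to 42.2 ± 0.903 FPKM against 194 ± 16.5 FPKM, whereas those with 6b summed to 6433 ± 97.8 against 1360.1 ± 72.8 FPKM (SD, n = 3). Exon 2a without 2b was held by 0.221 ± 0.0292% against 7.25 ± 2.54% of the long Tpm1 forms.

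In Tpm3, exon 1b was held by 9.14%, 5.52% and 10.6% against 32.0%, 25.1% and 31.3%, and exon 6a by 13.4%, 17.6% and 14.8% against 24.2%, 28.7% and 26.1%. Both were lower in every knockout-labelled library than in any control. Endings 9c or 9d were held by 15.5 ± 2.12% against 26.7 ± 2.29% of Tpm3 (SD, n = 3), and by 12.4 ± 1.17% against 33.9 ± 10.3% of Tpm1. Ending 9a by itself was held by 77.8 ± 7.37% against 65.3 ± 9.09% of Tpm1, with overlapping groups (exact permutation p = 0.3), and 9a or 9b together by 87.6 ± 1.17% against 66.1 ± 10.3%, without overlap. In Tpm2, exon 6a was held by 25.7%, 25.2% and 25.5% against 27.1%, 28.6% and 28.6%. The Tpm2 groups did not overlap either, but the distance was only 2.64 percentage points, and ending 9d was held by 9.92 ± 2.44% against 9.05 ± 1.66%. With counts in place of FPKM, the difference in exon 6a was -13.7 percentage points in Tpm1 and -13.9 in Tpm3.

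**Figure D4:**
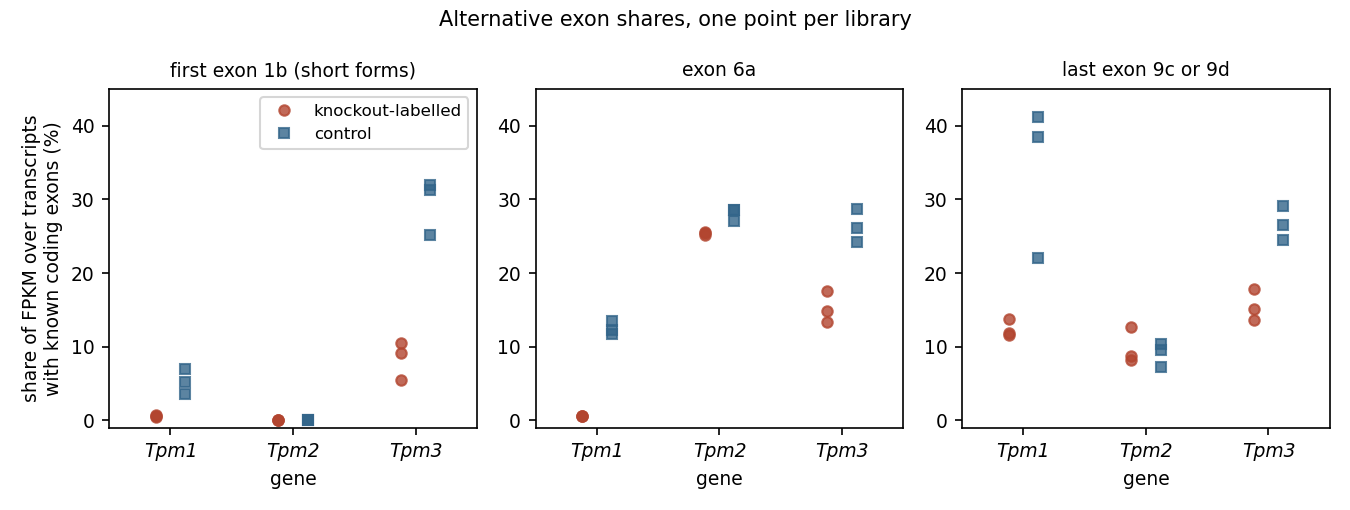
Share of each gene's FPKM, in percent, held by transcripts with exon 1b, exon 6a or ending 9c or 9d, with 1 point per library, over the transcripts of known coding exons. Exon 6a of Tpm1 is below 1% in the knockout-labelled libraries and above 11% in controls, and exon 1b of Tpm3 is below 11% and above 25%.

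The partners of tropomyosin in the sarcomere and in the cytoskeleton were listed to set the 4 genes among them. Of 18 genes of the striated thin filament, 17 rose and none fell, with a median change of 2.28, while the median of all genes tested was -0.02. Acta1, skeletal muscle actin, rose by 2.38 and Tnnc2, the calcium-binding troponin of fast fibres, by 2.79. Neb, the thin filament protein nebulin, rose by 2.24, and Actc1, cardiac actin, by 5.98, from 2.23 to 105 FPKM. Tpm1 and Tpm2, at 2.28 and 1.97, lay near the median of this list. Cardiac muscle markers, listed because Tpm1 is also the tropomyosin gene of heart, summed to 9.59 to 10.1 FPKM against 4.59 to 5.73 FPKM, with 2 of 4 tested genes higher. The higher ones were Myh6 (7.18 against 3.38 FPKM) and Myl4 (2.31 against 1.52 FPKM). Tnni3 (0.28 against 0.37 FPKM), Nppa (0.056 against 0.032) and Ryr2 (0.0075 against 0.0071) were very low in both groups, and Myl7 was not matched. Of the 24 genes of the non-muscle actin cytoskeleton, 19 fell and 4 rose, with a median of -0.45. Actg1, a cytoskeletal actin, fell by 0.64 on the log2 scale, the actin-severing Dstn by 1.09, the calponin Cnn2 by 1.30 and the filament cross-linker Flna by 0.73. Tpm4, at -0.70, moved in the direction of these.

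Genes of fast and of slow muscle fibres were all higher. All 12 fast fibre genes rose, with a median of 2.78, among them the myosin heavy chain Myh4 (3.65), the calcium pump Atp2a1 (2.76), Actn3 (3.10) and Pvalb (3.30). All 8 slow fibre genes rose, with a median of 1.24, among them the slow myosin Myh7 (1.23), Tnnc1 (1.46), Myl3 (1.59) and the calcium pump Atp2a2 (1.09). The slow muscle transcript Tpm3-205, at 1.09, had a change close to the slow fibre median, and Tpm1-205, at 2.83, one close to the fast fibre median, on the transcript and the gene scale respectively. The difference between the lists was not tested.

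Of 10 smooth muscle contractile genes, 7 rose and 2 fell, with a median of 0.82, and 5 and 3 under library totals alone. Acta2, smooth muscle actin, rose by 0.86, Myh11, the smooth muscle myosin heavy chain, by 1.82 and the actin-bundling Synpo2 by 2.01, while Mylk, the myosin light chain kinase, fell by 0.43 on the log2 scale. Beside Tpm1-214 and the 2a exon, the summed level of the 6 smooth muscle and pericyte markers was 107 to 108 FPKM in the knockout-labelled libraries and 88.7 to 89.97 FPKM in controls. Beside Tpm4, the 8 megakaryocyte and platelet markers summed to 323 to 333 FPKM against 423 to 439 FPKM, with 1 of 8 called, and higher. Under library totals alone none of the 8 was higher and 6 were lower. Fibroblast markers summed to 291 to 295 against 505 to 507 FPKM, with 2 of 6 higher and 4 lower, and the 6 neutrophil markers were all lower. Of 6 endothelial markers 3 were higher and 1 lower, but none higher and all 6 lower under library totals alone, and all 6 erythroid markers were higher. No defining marker of these lists was at 0 in all libraries. The part of these cell types in the isoform shares was not tested.

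RNA-binding proteins that act on tropomyosin or muscle exons were listed as well, with 19 of 20 genes tested and Esrp1 at 0 counts. By edgeR, 9 rose and 4 fell, with a median of 0.31, which became -0.12 under library totals alone, with 8 higher and 10 lower. Rbfox1 rose by 2.45, from 2.05 to 8.36 FPKM, and Rbm24, which promotes muscle exons, by 2.21, from 6.81 to 23.5 FPKM. Rbm38 rose by 1.42 and Qk by 0.70. Ptbp1, known to repress exon 6b of Tpm2 and muscle exons of Tpm1, is outside the rule that chose the named genes. It was added after its value was seen, and changed by -0.71, from 51.8 to 23.5 FPKM (edgeR adjusted p = 1.78e-10). Exon 6b was held by 74.6 ± 0.212% against 71.9 ± 0.817% of Tpm2 (SD, n = 3), and no Tpm2 transcript was called in usage. Whether any of these regulators had a part in the exon shares was not tested.

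**Figure D5:**
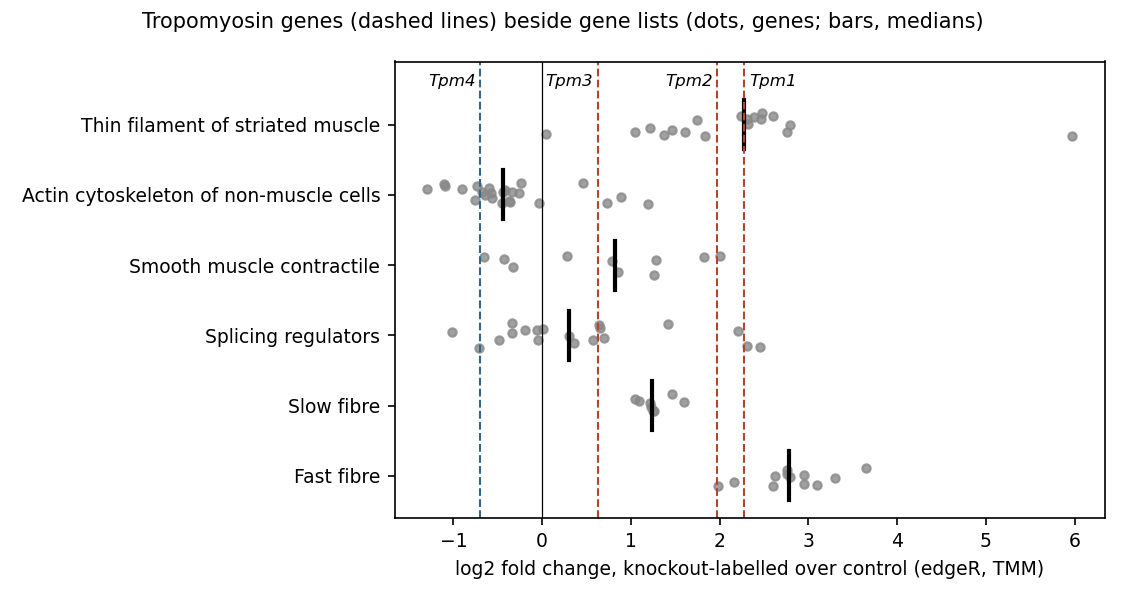
Log2 fold change (knockout-labelled against control, edgeR) of every tested gene of each list, as dots, with the list median as a bar and the 4 tropomyosin genes as dashed lines. Thin filament genes lie above 0, with a median of 2.28, and non-muscle cytoskeletal genes mostly below, with a median of -0.45. Under library totals alone the median of the splicing regulators changes sign.

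Profiles across the 6 libraries were compared with 3912 other named genes of mean FPKM 10 or more, as the distance between mean-centred log2(FPKM + 1) values. Nearest to Tpm1 were Plpp7 (distance 0.0495), Synm, Padi2, Slc2a4 and Srl, of which Synm encodes an intermediate filament protein and Slc2a4 the insulin-responsive glucose transporter. Nearest to Tpm2 were the small heat shock protein gene Hspb6 (0.0271), the fast myosin heavy chain Myh1, desmin (Des), Myom1 and Synpo2. Nearest to Tpm3 were Herpud1 (0.0394), Mzt1, Glul, Abcf1 and Rpa1. Nearest to Tpm4 were Tbrg1 (0.0343), Atp6v1e1, Vasp, Ptbp1 and Ctsa, of which Vasp acts on growing actin filaments. With 2 groups of 3 libraries, this likeness mostly measures a similar fold change between the groups.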

How the data were processed

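RNA of 6 femora was analysed, 3 knockout-labelled and 3 control, grouped by the treatment label and numbered by title. Per the submitters' processing notes, fastp, HISAT2, StringTie, RSEM and GRCm39 were used. Versions and order were not given in the sources. The FPKM values were computed by the authors per gene and per transcript. The expected counts deposited by the authors are whole numbers equal, after rounding up, to FPKM times length times a scale factor for the library. They were taken as 4 counts per read pair. They were used as deposited.

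Counts were filtered with filterByExpr, scaled by TMM and tested by the quasi-likelihood test of edgeR 4.0.16 (R 4.3.3) on all genes or all transcripts, with Benjamini-Hochberg adjustment at 0.05. The genes tested held 99.96% of the counts. Usage was tested with diffSpliceDGE. A share is a transcript's FPKM over the summed FPKM of its gene's transcripts. Nothing in the labels says more about the replicates than that they came from separate mice, and p-values measure the spread between these libraries. Divided by the 4 counts taken per read pair, counts of replicates differed by more than sampling noise (chi-square per gene 2.02 to 2.49). That value depends on this approximate factor and does not show how far mice differ.

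Classes came from coding exons matched by transcript ID, exon number and length to GENCODE M21 (40 of 44 transcripts). Ends of the deposited transcripts gave the same class for 39 of 39 transcripts of Tpm1, Tpm3 and Tpm4 and 3 of 5 of Tpm2. Short forms and transcripts with no class were set by the same rule both ways, so only long forms could differ. The long forms of Tpm1 and Tpm3 all kept their class. Of the long Tpm2 forms, whose ends coincide, only Tpm2-203 did. The coding exon was therefore used for Tpm2, a choice made after the data were seen, as were the sums by class and by exon. Promoters are RefSeq sequences. Estimated counts divide reads between overlapping isoforms, and no error of that division was deposited with them.

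Members and gene lists were chosen with earlier results of these data known. Transcripts holding at least 5% of their gene in either group's mean were described, and up to 4 genes of smallest adjusted p were named per list, 5 per member for likeness. The tests were run on simulated data with known changes. A pass was required of the gene test, and of the usage test only at a low, constant spread between libraries. No pass was set for the transcript test, or for usage at the spread of these data. Alternatives were DESeq2 1.42.0, other size factors, library totals alone, no filter, counts divided by 4, limma 3.58.1 on log2(FPKM + 1) or log2(FPKM + 0.1), diffSplice on voom values, a replicate block, and leaving out each library.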

Additional observations from a re-analysis of the deposited data

How the results depend on the processing

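The 4 tropomyosin gene calls held, with the same sign, in every alternative, with leave-one-out changes of 2.28 (both ends) for Tpm1, 1.97 (both ends) for Tpm2, 0.61 to 0.64 for Tpm3 and -0.71 to -0.67 for Tpm4. Scaling moved the sizes more than leaving out a library. Under library totals alone, where the median gene stood at -0.44, the changes were 1.86 for Tpm1, 1.55 for Tpm2, 0.21 for Tpm3 and -1.12 for Tpm4. The count of all transcripts called was 8643 and became 14640 with DESeq2, and leaving out 1 library gave 5990 to 6675. The count called by usage was 322 and became 526 without the low-count filter, 213 with counts divided by 4 and 2305 with limma's diffSplice on voom values, and member transcripts called by usage numbered 2, with 1 to 4 when 1 library was left out. The same-numbered libraries did not pair (correlations of deviations 0.00515, 0.00311 and -0.00898), and with the replicate block 4483 transcripts were called by level and 159 by usage. Under that block the usage call of Tpm1-213 (adjusted p = 0.157) and the level call of the Tpm1 long forms with another last exon (1.39, adjusted p = 0.0871) were lost, and the usage of Tpm3-204 (adjusted p = 0.0263), and the short Tpm3 sum in level (0.0439) and usage (0.0382), passed. With shares of counts in place of FPKM, the Tpm3 long striated share, which is Tpm3-205 alone, differed by 17.3 in place of 14.2 percentage points and Tpm2-202 by 3.23 in place of 2.67. Leaving out 1 library gave differences of 18.2 to 28.2 percentage points for the Tpm1 long striated share, -1.62 to 0.60 for Tpm2 and 13.7 to 14.6 for Tpm3. Tpm3-202, which was never called, turned from 0.17 to -0.27 under library totals alone, -0.31 by limma on log2(FPKM + 1) with or without a filter, -0.32 with log2(FPKM + 0.1) and between -0.20 and 0.43 when 1 library was left out. Except where an alternative fits fewer samples, the cause of these changes was not tested. Depth limits the lowest transcripts: 12 of the 44, none above 0.38 FPKM in any library, were too low to test, and single transcripts that share most exons were split unevenly between replicates.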
